A study of Sus scrofa with 16 samples.

Results

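The comparison of high with low fecundity in the luteal phase was examined in the ovary of 8 Canadian Large White sows. Group LH held 4 sows of high fecundity and group LL 4 sows of low fecundity, all killed on day 14 of the estrous cycle, counted from the first day of estrus. A transcript entered the comparison when it had 0.5 FPKM or more in at least 4 of these 8 libraries, and 5015 of the 27370 transcripts in the table did. FPKM counts sequenced fragments relative to the length of the transcript and to the size of the library. By this rule a transcript listed at 0 throughout a group entered only if all 4 libraries of the other group reached 0.5 FPKM. Its groups could then not overlap. The rule used the level of a transcript over both groups together and not the difference between them. It took in 1242 transcripts that reached 0.5 FPKM in exactly 4 libraries and left out 1896 that reached it in 3, while 1710 reached it in all 8.

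The study sequenced ovarian RNA of 16 sows, 4 in each of 4 groups, after removal of ribosomal RNA. The other 8 sows were the high (FH) and low (FL) fecundity groups of the follicular phase, killed on day 20. No animals were pooled, and each library came from 1 sow without known kinship to the others. Fecundity was the number of piglets born, taken from the ends of its distribution in the herd, and the labels name no introduced allele, drug or hormone in either group. By the study's own records every LH sow had farrowed more often than every LL sow, so that fecundity and parity cannot be told apart here.

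In the middle and late luteal phase the pig ovary is dominated by corpora lutea, the glands that form from ovulated follicles and make progesterone from cholesterol. Their blood vessels, fibroblasts and immune cells make up much of the tissue, and prostaglandin F2 alpha from the uterus ends their life if no embryo signals. Extracellular nucleotides, matrix proteases, members of the transforming growth factor beta family and the control of oxidative stress all have known roles in the growth and regression of this gland. In whole ovary, fewer cells of a type and less RNA per cell cannot be told apart.

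The labelled tissue could be checked only in part. The table gave transcript identifiers without names, and 3847 of the 27370 transcripts (14.06%) could be linked to a symbol. No transcript could be linked to STAR, CYP11A1, HSD3B1, LHCGR or NR5A1, the genes that define steroid-making luteal cells, so their levels were not analysed here. Of the luteal genes that could be linked, the prostaglandin F receptor PTGFR and the cholesterol transporter gene STARD3 were detected in both groups. Markers of endothelial, smooth muscle, macrophage, lymphocyte and germ cells were also detected, the endothelial ones at the highest summed level, and are described with their values further on.

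The fragments behind the listed values were few and unequal between libraries. The values fell on whole multiples of 1 fragment for 92.1% to 94.3% of the low values (within 0.05 of a whole number), which put 178000 to 299000 fragments behind the LH libraries and 190000 to 205000 behind the LL libraries. The study reports far more sequenced reads than this, and the reason for the gap was not tested. On a transcript of middling length a single fragment was worth a few FPKM, and the median tested transcript rested on 22 fragments over all 8 libraries. The LH libraries held 4622, 8132, 7853 and 6226 transcripts at 0.5 FPKM or more and the LL libraries 4989, 4440, 4900 and 6081 (exact two-sided permutation test, p = 0.171). The transcript of ND6, the single mRNA gene on the light strand of mitochondrial DNA, took 3.111%, 1.00%, 3.58% and 3.66% of the fragments in LH1 to LH4 and 10.7%, 4.33%, 7.75% and 3.71% in LL1 to LL4. The groups did not overlap in this share (exact permutation p = 0.0286, the smallest that 4 against 4 can give; 0.171 after adjustment over 6 library measures).

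Over transcripts chosen from all 4 groups, no LH library was nearest to its own label. Over 11027 transcripts, LH2 had a median Pearson's r of 0.615 with the other LH libraries, 0.606 with LL, 0.619 with FH and 0.629 with FL. Its values with LH and with LL were the lowest of the 8 libraries. LH1, LH3 and LH4 had 0.665, 0.636 and 0.636 with LH and were nearer to LL, at 0.743, 0.651 and 0.704. LH4 was also no nearer to LH than to FH (0.641) or FL (0.668). LL1 to LL4 had 0.696 to 0.761 with LL, above their values with any other group. Over the 5015 tested transcripts LH2 (0.686 and 0.647), LH3 (0.723 and 0.709) and LH4 (0.723 and 0.718) were nearer to LH than to LL. LH1 was not (0.724 and 0.742). There LL1 to LL3 were nearer to LL, and LL4 was not (0.715 with LL and 0.718 with LH). LH2 also held the most transcripts and the lowest ND6 share of the 8. The counts of gene lists are given without it as well where they moved, and the count of all calls without LH1 or LL4 too.

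**Figure D1:**
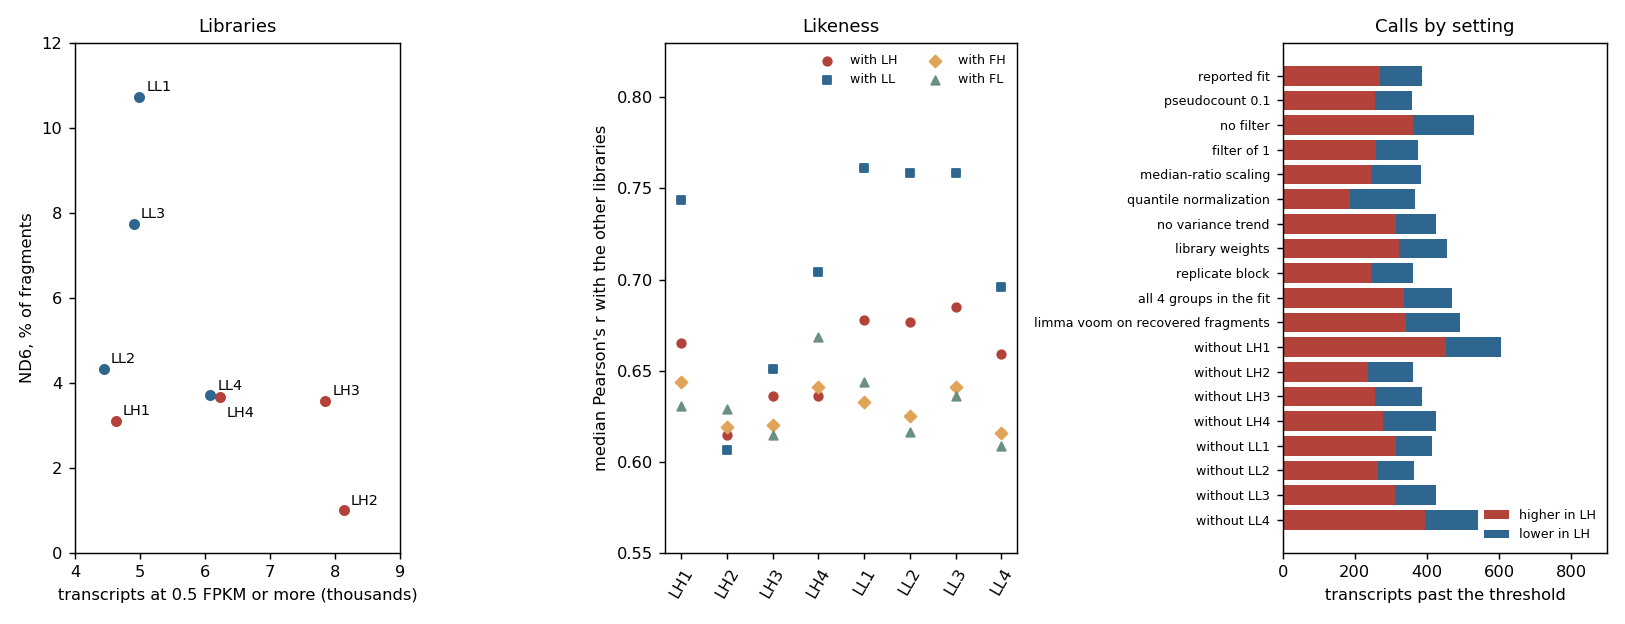
Left, transcripts at 0.5 FPKM or more (x axis) against the share of fragments on ND6 (percent, y axis), 1 point a library. Middle, the median Pearson's r of each library with the libraries of the 4 groups, over 11027 transcripts. Right, the transcripts past the study's threshold in each setting, split into higher and lower in LH. LH2 lies lowest in ND6 share at 1.0%, LH2 and LH4 lie no nearer to LH than to the follicular groups, and the count of calls ranges from 359 to 605 over the settings.

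The strand of the fragments limits what a name means. The library kit kept the strand, but the strand setting of the counting step is not given in the sources used here. ND6 had 15.0 to 67.2 times the FPKM of ND4, which lies on the opposite strand, in the 8 libraries. Collagens, TIMP1, ferritin light chain (FTL) and ribosomal proteins, abundant in most tissues, were listed low. GYS1, which lies next to FTL, held the most recovered fragments of the named transcripts over the 8 libraries, and LSM1 lies next to STAR in the RefSeq gene order of the pig. Names here follow the assignment in the table, and whether fragments came from the named gene or from the opposite strand was not tested.

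Of the 5015 transcripts, 387 (7.72%) passed the study's threshold, an unadjusted p under 0.05 with a log2 fold change of 1 or more in either direction. Of these, 271 (5.4%) were higher and 116 (2.31%) lower in LH. Only the cut-offs are those of the study, and the test here is limma. By its own test the study lists more mRNAs as down-regulated than as up-regulated for LH against LL. The reason for this unlike balance was not tested. Only 1 transcript, that of TMSB4X, passed an adjusted p of 0.05 (0.0199%), and 399 (7.96%) had an unadjusted p under 0.05. The alternatives to this fit gave 0 to 28 transcripts with an adjusted p under 0.05, and TMSB4X was among them in 12 of the 18. The next smallest adjusted p was 0.177, so that no other single transcript called here holds after correction for 5015 tests. Fold changes are LH minus LL on the log2(FPKM + 1) scale with their standard error, and adjusted p-values are by limma with Benjamini-Hochberg adjustment over all 5015 transcripts. A value is described as raised or lowered when it passed the study's threshold.

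The excess of higher calls depended on the scaling. The median log2 fold change of all tested transcripts was 0.26 and 63.0% were positive, so that 70.03% of the calls lay on the higher side. With quantile normalization, which sets the distributions equal, 367 calls were made and 51.0% of them were higher, and with median-ratio scaling 384 and 63.5%. Counted relative to the median, 373 transcripts passed. Groups did not overlap for 262 transcripts (5.22%), 192 higher and 70 lower in LH. Among these are the 61 transcripts listed at 0 throughout a group, whose lack of overlap followed from the filter.

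Most calls rested on few fragments. For 268 of the 387 calls the group with more fragments held fewer than 10 a library, and in 61 calls every library of LL (54) or of LH (7) was listed at 0. All 61 tested transcripts of this kind passed. The filter favoured their calls by requiring detection throughout the other group, so their p-values are not independent of it. Among the 1328 transcripts with 10 or more fragments a library in that group, 119 (8.96%) passed, 77 higher and 42 lower. Leaving out LH1 gave 605 calls, leaving out LH2 361 and leaving out LL4 542. Of the 387 calls, 264 (68.2%) were also made without LH2, and 145 were made in every setting tried.

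**Figure D2:**
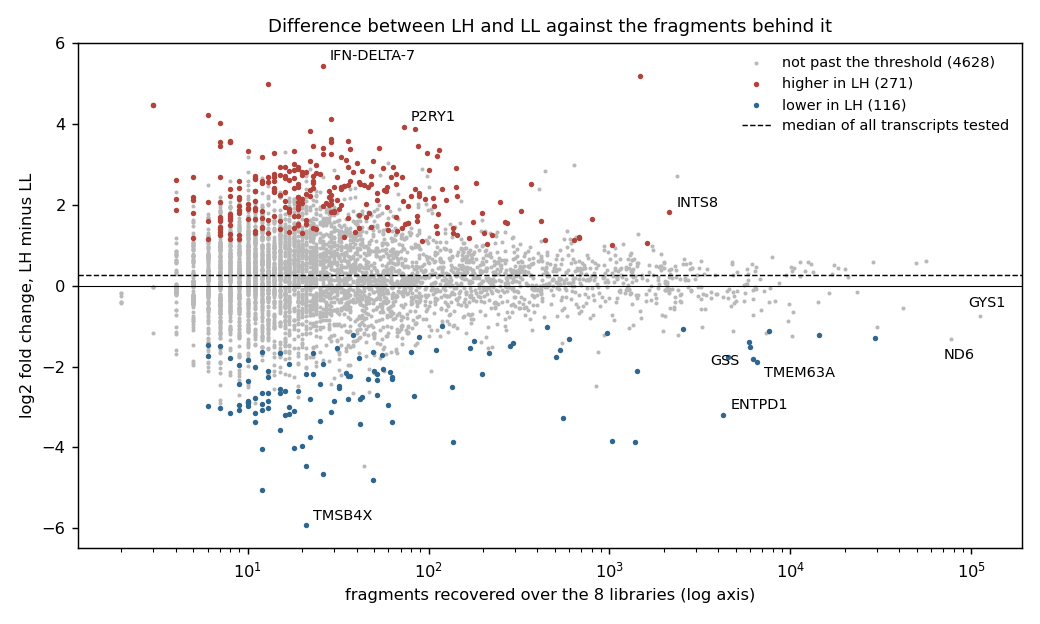
Fitted difference between LH and LL (log2 fold change of FPKM + 1, y axis) of the 5015 transcripts against the fragments recovered over the 8 libraries (log x axis), with the calls of the study's threshold coloured and the median of 0.26 dashed. The widest differences lie at few fragments, and ENTPD1, GSS, TMEM63A and INTS8 are calls with many.

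A symbol was known for 1280 of the tested transcripts, and 211 of them (16.5%) passed the threshold, 148 higher and 63 lower. Of the 211, 134 were linked only through the study's own list of transcripts that differed between LH and LL. Among the 936 linked through the study's table of miRNA targets, 57 (6.09%) passed. Counts within gene lists below are to be read beside these shares, and a list whose called members were linked only through the study's list is no independent evidence of its direction.

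The 12 lower transcripts with the smallest p and no overlap spanned actin binding, nucleotide hydrolysis, coenzyme Q and calcium storage. TMSB4X encodes thymosin beta 4, which binds actin monomers, and was listed at 0 in every LH library and at 82.5, 70.9, 14.9 and 141.2 FPKM across LL1 to LL4 (adjusted p = 0.0365). It rested on 21 fragments, all in LL, and its lack of overlap followed from the filter. All 7 calls of this comparison that were listed at 0 in every LH library were among the 12, and no fold is given for them.

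CASQ2, the calsequestrin that stores calcium in the sarcoplasmic reticulum, was listed at 0 in every LH library and at 10.5, 6.85, 14.7 and 7.41 FPKM across LL1 to LL4 (adjusted p = 0.192). ZGRF1, a DNA repair helicase, was listed at 0 in every LH library and at 6.24, 8.1, 17.4 and 4.37 FPKM across LL1 to LL4 (adjusted p = 0.192). PTHLH, the parathyroid hormone-related hormone, was listed at 0 in every LH library and at 4.73, 9.34, 5.0 and 10.1 FPKM across LL1 to LL4 (adjusted p = 0.192). None of these reached 20 fragments in LL. SLC35F5, a solute carrier, was listed at 0 in every LH library and at 5.62, 5.49, 5.91 and 11.9 FPKM across LL1 to LL4 (adjusted p = 0.192). The deubiquitinase USP7 was listed at 0 in every LH library and at 3.82, 2.47, 2.67 and 1.33 FPKM across LL1 to LL4 (adjusted p = 0.236). RAPGEF2, an exchange factor for Rap proteins, was listed at 0 in every LH library and at 0.74, 2.15, 3.10 and 3.09 FPKM across LL1 to LL4 (adjusted p = 0.262). For each of these genes, detection in all 4 LL libraries and the lack of overlap followed from the filter.

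RUNX2, a transcription factor best known from bone, stood at 0, 14.6, 0 and 0 FPKM across LH1 to LH4 and 49.1, 106, 109.9 and 30.1 across LL1 to LL4 (log2 fold change -5.04 ± 0.94, adjusted p = 0.177). It rested on 1 fragment in LH, from LH2, and 11 in LL. Without LH2 the difference was -6.04. GPR75, a receptor coupled to G proteins, had 29.8, 17.3, 26.5 and 35.8 FPKM across LH1 to LH4 and 60.8, 87.8, 125 and 58.6 across LL1 to LL4 (-1.54 ± 0.43, adjusted p = 0.246), and the LH values were lower in every library with 47 fragments against 123. TMEM63A, an ion channel opened by membrane stretch, had 416, 55.8, 303 and 379 FPKM across LH1 to LH4 and 673, 869.9, 969 and 907 across LL1 to LL4 (-1.89 ± 0.55, adjusted p = 0.262). It was the deepest of the 12 with 1769 and 4793 fragments in LH and LL, and its log2 fold change was -1.22 without LH2. TMEM63A overlaps EPHX1 in the RefSeq annotation and RUNX2 overlaps SUPT3H, and fragments of overlapping genes could not be told apart.

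The 12 higher transcripts with the smallest p and no overlap included receptors, kinases and an RNA-processing subunit. INTS8, a subunit of the Integrator complex that processes small nuclear RNA, was the deepest, at 365, 453, 367 and 475 FPKM across LH1 to LH4 and 73.8, 78.3, 116 and 265 across LL1 to LL4 (log2 fold change 1.82 ± 0.42, adjusted p = 0.192). The closest libraries were LH1 at 365 and LL4 at 265. INTS8 overlaps CCNE2, a cyclin gene. YPEL4, of a small family of zinc-binding proteins, had 72.7, 40.1, 22.03 and 31.7 FPKM across LH1 to LH4 and 5.85, 5.72, 3.08 and 6.19 across LL1 to LL4 (2.68 ± 0.58, adjusted p = 0.192), and the lowest LH library lay far above the highest LL library. IFN-DELTA-7, a type I interferon of the pig, had 166, 53, 154 and 122 FPKM across LH1 to LH4 and 0, 47.2, 0 and 0 across LL1 to LL4 (5.44 ± 1.11, adjusted p = 0.192), and LL2 was the only LL library above 0. It rested on 24 fragments in LH and 2 in LL, and without LL2 its value was 6.84.

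For 8 others every LL library was listed at 0. They were WEE2, an oocyte kinase that holds meiosis, OR1I1 and OR13C3 of the olfactory receptor family, the tyrosine kinase ABL2, the spindle orientation gene GPSM2, the endosomal syntaxin STX12, the Polycomb subunit EED, and BTBD19. WEE2 was 6.39, 16.6, 4.73 and 12.8 FPKM across LH1 to LH4 and listed at 0 in every LL library (adjusted p = 0.192). ABL2 was 6.32, 6.49, 3.53 and 8.91 FPKM across LH1 to LH4 and listed at 0 in every LL library (adjusted p = 0.192). STX12 was 5.12, 4.47, 5.70 and 6.16 FPKM across LH1 to LH4 and listed at 0 in every LL library (adjusted p = 0.192). The LH values of these 3 rested on 11 to 21 fragments in all. For all 8, detection in every LH library followed from the filter. GPSM2, which overlaps CLCC1, was 5.46, 4.76, 4.06 and 8.76 FPKM across LH1 to LH4 and listed at 0 in every LL library (adjusted p = 0.192). EED was 3.13, 5.43, 4.64 and 7.52 FPKM across LH1 to LH4 and listed at 0 in every LL library (adjusted p = 0.198). BTBD19 was 4.16, 3.65, 3.09 and 3.34 FPKM across LH1 to LH4 and listed at 0 in every LL library (adjusted p = 0.198). OR1I1 ranged from 4.58 to 24.9 FPKM and OR13C3 from 5.28 to 28.1 FPKM in LH. Olfactory receptors form a large family of close copies between which fragments can be shared, and their values are uncertain.

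**Figure D3:**
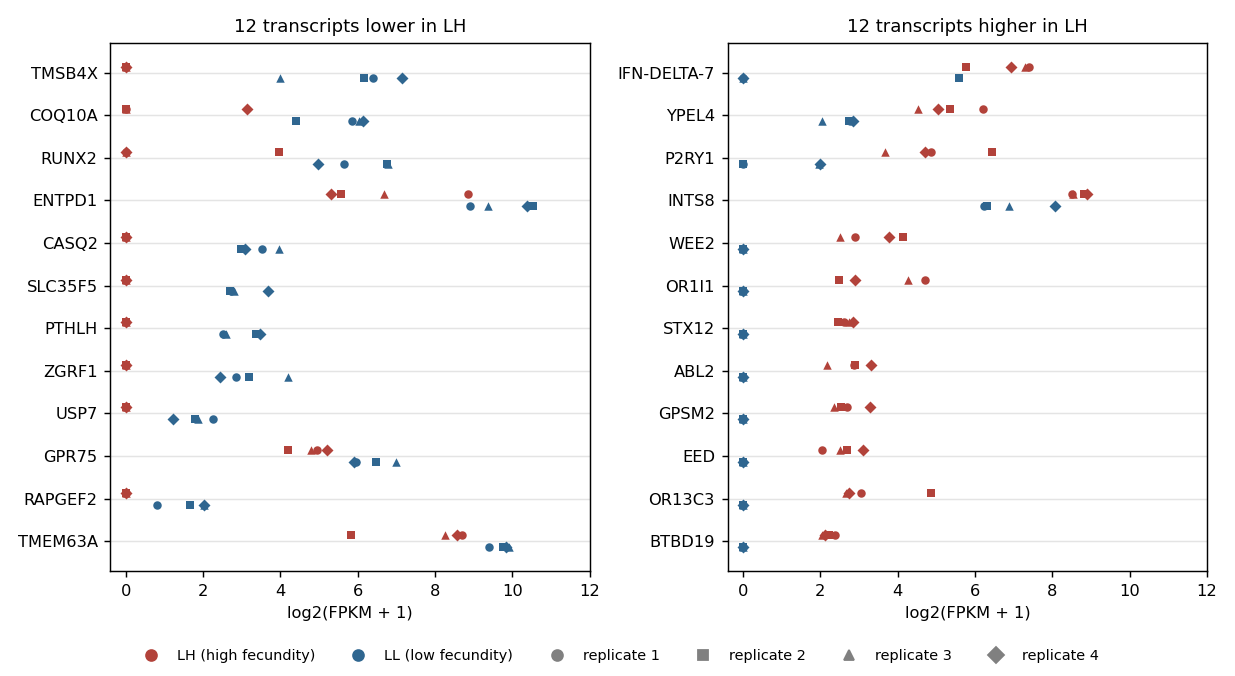
log2(FPKM + 1) of the 12 lower and 12 higher named transcripts with the smallest p and no overlap (x axis), 1 symbol a library and 1 line a transcript. Each row was chosen to show 4 LH and 4 LL points that do not overlap. In 7 lower rows every LH point is at 0, and in 8 higher rows every LL point is at 0. In those rows the filter fixed the lack of overlap.

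Genes of purine signalling differed in both directions. The enzyme ENTPD1 (CD39), which breaks down extracellular ATP and ADP, was lower in LH and 3 receptors for nucleotides were higher. In all, 3 of 7 tested genes of the list were higher and 1 lower, with a median log2 fold change of 1.3 beside 0.26 over all transcripts. Of these calls, 3 were linked only through the study's list. Without LH2 the count was 2 higher and 1 lower.

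ENTPD1 had 463, 46.4, 101 and 38.9 FPKM across LH1 to LH4 and 475, 1483, 664 and 1328 across LL1 to LL4 (-3.19 ± 0.68, adjusted p = 0.192), on 605 and 3639 fragments in LH and LL. The nearest pair was 463 in LH1 and 475 in LL1, and without LH1 the difference widened to -3.94. P2RY1, a receptor for ADP, had 28.3, 85.6, 11.7 and 25.2 FPKM across LH1 to LH4 and 0, 0, 2.93 and 2.94 across LL1 to LL4 (3.93 ± 0.87, adjusted p = 0.192), with no overlap on 71 and 2 fragments. P2RY12, also a receptor for ADP, had 14.9, 129, 43.7 and 41.1 FPKM across LH1 to LH4 and 0, 12.9, 0 and 21.1 across LL1 to LL4 (3.41 ± 1.07, adjusted p = 0.328), and LH1 lay below LL4. P2RY14, a receptor for UDP-glucose, had 30.6, 122, 143 and 85.1 FPKM across LH1 to LH4 and 40.3, 26.5, 28.4 and 38.3 across LL1 to LL4 (1.3 ± 0.50, adjusted p = 0.491), and LH1 again lay within LL. Its call was lost without LH2, LH3, LL2 or LL3, with values of 1.04 to 1.23. P2RY12 without LL1 or LL3 was 2.72 and without LL4 4.21, all still past the threshold. P2RY12 and P2RY14 both lie within MED12L, so that their fragments and those of MED12L could not be told apart. P2RY1 overlaps no annotated protein-coding gene, and overlap with non-coding genes was not checked.

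The other members of the list did not pass. P2RY11, a receptor for ATP, had a log2 fold change of 0.08, on 280 and 227 fragments. ADCY2, an adenylate cyclase, had 1.83 on 41 and 5 fragments, and the G protein subunit GNAI2 had -0.52 on 2 and 4.

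Genes of glutathione, ubiquinone and oxidant handling were lower in LH where they passed. Of 11 tested genes 4 were lower and none higher (3 linked only through the study's list), with a median of -0.62, and the count was 3 lower without LH2. GSS, glutathione synthetase, had 743, 90.9, 746 and 331 FPKM across LH1 to LH4 and 1224, 1621, 1181 and 1118 across LL1 to LL4 (-1.82 ± 0.57, adjusted p = 0.328). The lowest LL library was 1118 and the highest LH library 746, on 1800 and 4434 fragments. LH2, at 90.9, lay within the 81.4 to 145 FPKM of the 8 follicular libraries, and without it the difference was -1.16.

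COQ10A, a coenzyme Q-binding protein of mitochondria, had 0, 0, 0 and 7.86 FPKM across LH1 to LH4 and 56.5, 20, 64.2 and 69.6 across LL1 to LL4 (-4.81 ± 0.87, adjusted p = 0.177), without overlap and with -5.60 without LH4. It rested on 2 fragments in LH and 47 in LL, and overlaps CS, the citrate synthase gene. DUOX2, an oxidase that makes hydrogen peroxide, had 14.02, 2.96, 1.61 and 0 FPKM across LH1 to LH4 and 46.4, 36.5, 11.3 and 6.55 across LL1 to LL4 (-2.51 ± 0.96, adjusted p = 0.491), and LH1 lay above LL3 and LL4. FTL, the ferritin light chain that stores iron, had 16.7, 4.61, 6.09 and 6.54 FPKM across LH1 to LH4 and 21.6, 64.9, 7.68 and 39.3 across LL1 to LL4 (-1.65 ± 0.71, adjusted p = 0.576), with overlap through LH1, on 5 and 18 fragments. The call of DUOX2 was lost without LH4, LL1 or LL2 (-2.21 to -1.91), and without LH1 its value was -3.21. That of FTL was lost in 6 of the 8 fits without 1 library, all but LH1 and LL3, at -1.74 to -1.22.

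Among the 7 genes of the list that did not pass, COQ5 of coenzyme Q synthesis had -1.07, EPHX1 had -0.62 and the peroxidase PRDX6 had -0.11. DUOXA1, which is needed for the maturation of the DUOX1 oxidase and lies 2 genes from DUOX2 in the RefSeq order, was lower in LH at 196, 0, 197.9 and 44.0 FPKM across LH1 to LH4 and 442, 383, 711 and 127 across LL1 to LL4 (-3.28 ± 1.33, adjusted p = 0.537). It rested on 122 and 433 fragments. LH1 and LH3 overlapped LL, and LH2 was listed at 0. The call was lost without LL1, LL2 or LL3 (-3.24 to -2.94), and without LH2 the value was -1.55, still past the threshold, while it was -4.09 without LH1 or without LH3.

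**Figure D4:**
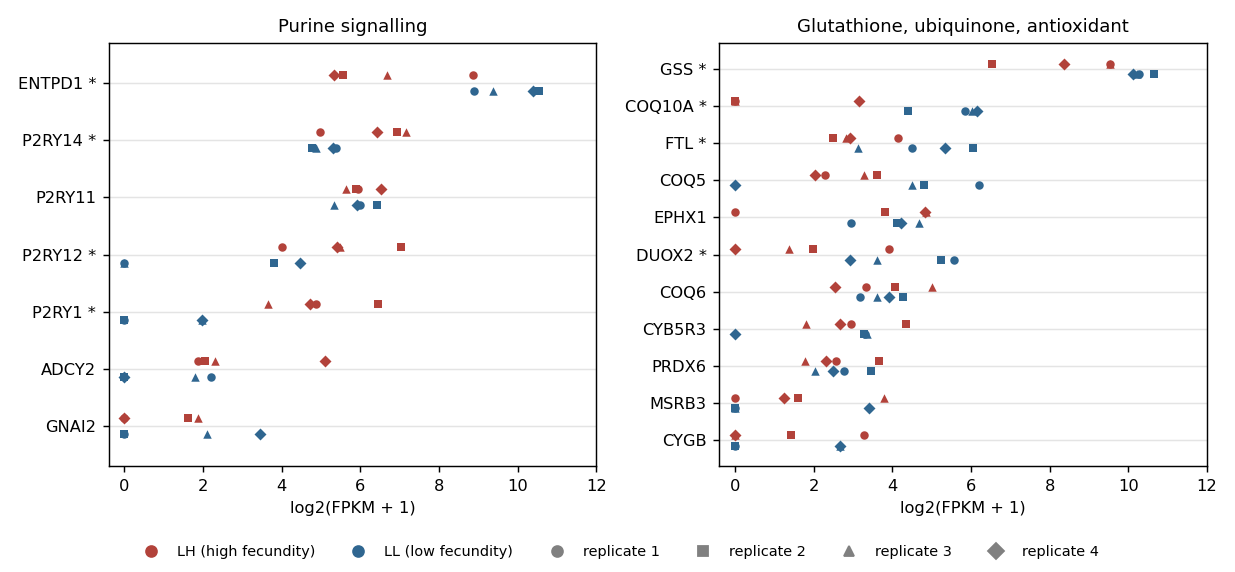
log2(FPKM + 1) of the tested genes of purine signalling and of glutathione, ubiquinone and oxidant handling (x axis) in the 8 libraries, 1 symbol a library, with an asterisk beside genes past the study's threshold. P2RY1, ENTPD1, COQ10A and GSS show LH and LL points that do not overlap.

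Among 15 tested cholesterol and steroid genes none was higher and 2 were lower, with a median of 0.03. Without LH2 the count was 1 higher, CYP21A2, and 1 lower. Both calls of the list were linked only through the study's list of differing transcripts. MSMO1, a methylsterol oxidase of cholesterol synthesis and one of the lower calls, had 12.9, 0, 4.77 and 0 FPKM across LH1 to LH4 and 17.12, 27.9, 6.0 and 24.1 across LL1 to LL4 (-2.54 ± 1.0, adjusted p = 0.516), with LH1 above LL3. The MSMO1 call was lost without LH2, LH4, LL2 or LL4 (-2.37 to -2.01), and the value was -3.28 without LH1.

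The most abundant other members were on the higher side without passing. CYP21A2, the steroid 21-hydroxylase, had 60.9, 54.7, 113 and 100.1 FPKM across LH1 to LH4 and 29.9, 38.1, 31.5 and 66.5 across LL1 to LL4 (0.98 ± 0.43, adjusted p = 0.586), with overlap of LL4 with LH1 and LH2, and overlaps TNXB. STARD3, which moves cholesterol out of late endosomes, had 13.5, 67.6, 27.3 and 46.5 FPKM across LH1 to LH4 and 54.5, 17.6, 11.3 and 7.19 across LL1 to LL4 (0.92 ± 0.68, adjusted p = 0.703), and its groups overlapped. SCARB1, the receptor for high-density lipoprotein, had a log2 fold change of -1.52 on 3 and 17 fragments and did not pass.

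Among gonadal regulators and hormone receptors, the receptor through which prostaglandin F2 alpha acts on the corpus luteum was lower in LH. PTGFR had 2.05, 1.2, 1.52 and 3.29 FPKM across LH1 to LH4 and 14.6, 23.08, 5.74 and 13 across LL1 to LL4 (-2.24 ± 0.78, adjusted p = 0.425). The highest LH library lay below the lowest LL library, and the call was kept in all 8 fits without 1 library. It rested on 5 fragments in LH and 31 in LL, so that the LH values are of 1 or 2 fragments each. In the follicular phase PTGFR stood at 0 throughout FL, against 0, 8.22, 0 and 5.41 FPKM in the 4 FH libraries. The other 8 tested genes of the list did not pass. KL, klotho, was among the most abundant named transcripts with 5845, 11350.1, 7081 and 6435 FPKM across LH1 to LH4 and 5736, 5159, 5606 and 3878 across LL1 to LL4 (0.56 ± 0.38, adjusted p = 0.675), and all LH values lay above LL although the threshold was not met. Its relative KLB had -0.74 ± 0.60 and overlaps RPL9. PAQR5, a membrane progesterone receptor, had 1.31 on 15 and 3 fragments, and FOXO1 had -0.98 on 5 and 11.

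Matrix proteins gave no call, and the proteases and inhibitors gave calls in both directions. None of 18 collagens and matrix proteins passed (median -0.04). Of 16 proteases and inhibitors 2 were higher and 2 lower (median -0.15), and 3 of the 4 were linked only through the study's list. Without LH2 it was 1 higher and 1 lower. ADAMTS9, a protease that cuts proteoglycans, had 9.45, 24.9, 12.8 and 20.1 FPKM across LH1 to LH4 and 1.54, 2.24, 3.22 and 5.61 across LL1 to LL4 (2.11 ± 0.72, adjusted p = 0.413), and every LH library lay above every LL library. ADAMTS2, which trims procollagen, had 5.87, 9.93, 8.15 and 8.14 FPKM across LH1 to LH4 and 1.51, 1.46, 0.79 and 1.57 across LL1 to LL4 (1.95 ± 0.79, adjusted p = 0.535), also without overlap. Its call was lost without LH2, LH3 or LL3 (1.82 to 1.93).

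CTSB, the lysosomal cysteine protease cathepsin B, went the other way at 15.3, 0, 13.6 and 0 FPKM across LH1 to LH4 and 67.9, 23.9, 19.99 and 22.9 across LL1 to LL4 (-2.95 ± 1.0, adjusted p = 0.417). The groups did not overlap, and the call held in all 8 fits without 1 library, with values from -3.64 without LH1 and -3.59 without LH3 to -2.30 without LH2 or LH4. TIMP2, an inhibitor of metalloproteases, had 6.79, 0, 19.9 and 16.06 FPKM across LH1 to LH4 and 35.5, 23.5, 31.3 and 19.14 across LL1 to LL4 (-1.93 ± 0.88, adjusted p = 0.607), and LH3 lay above LL4. It passed in only 2 of the 8 fits without 1 library, those without LH3 or LH4, and reached -2.08 to -0.97 in the others. TIMP1, a related inhibitor, had 50.6, 0, 30.7 and 46.2 FPKM across LH1 to LH4 and 50.9, 109, 69.7 and 63.5 across LL1 to LL4 (-2.10 ± 1.03, adjusted p = 0.639) and did not pass, although its groups did not overlap. Without LH2, where it was listed at 0, the value was -0.75. AEBP1, a matrix protein, had -1.01 ± 0.50 without overlap and LOXL4, a lysyl oxidase, -1.57 ± 0.82 with overlap, and neither passed.

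The transforming growth factor beta and bone morphogenetic protein list held 2 higher and 1 lower of 11 tested genes (median 0.58), and 2 higher and none lower without LH2. GDF11, a ligand of the activin branch, had 29.7, 37.4, 35.3 and 50.2 FPKM across LH1 to LH4 and 13.3, 24.6, 15.2 and 20.2 across LL1 to LL4 (1.03 ± 0.46, adjusted p = 0.586), without overlap. HIVEP1, a zinc-finger protein related to the SMAD partner schnurri, had 0.53, 2.22, 2.0 and 2.60 FPKM across LH1 to LH4 and 0.48, 0, 0 and 0 across LL1 to LL4 (1.29 ± 0.47, adjusted p = 0.449) on 19 and 1 fragments. MSTN, myostatin, a close relative of GDF11, was lower at 23.0, 0, 33.8 and 9.11 FPKM across LH1 to LH4 and 45.3, 59.7, 74.5 and 16.2 across LL1 to LL4 (-2.19 ± 0.97, adjusted p = 0.586), with overlap, and LH2 was listed at 0. BMP6, the ligand with the most fragments, had 1367, 1322, 949.7 and 2077 FPKM across LH1 to LH4 and 820.3, 629, 1046 and 1326 across LL1 to LL4 (0.58 ± 0.36, adjusted p = 0.654) and did not pass. The MSTN call was lost without LH2, LH4, LL1, LL2 or LL3 (-2.21 to -1.1) and was -2.81 without LH3. That of GDF11 was lost without LH3, LH4, LL1 or LL3 (0.89 to 1.06), and that of HIVEP1 without LL2, LL3 or LL4 (1.24 each).

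Of 12 tested Notch and Wnt genes 2 were higher and none lower (median 0.36). DIXDC1, which acts in Wnt signalling beside Dishevelled, had 6.77, 5.32, 8.42 and 13.7 FPKM across LH1 to LH4 and 2.02, 0.98, 3.17 and 0 across LL1 to LL4 (2.02 ± 0.85, adjusted p = 0.565), without overlap, and lost its call without LH3, LH4, LL2 or LL4 (1.64 to 2.0). NUMBL, an inhibitor of Notch, had 2.17, 13.9, 11.3 and 1.74 FPKM across LH1 to LH4 and 0, 0, 0 and 2.03 across LL1 to LL4 (2.26 ± 0.86, adjusted p = 0.491), and LH4 lay below LL4. Its call was lost without LL1, LL2 or LL3 (2.13 each). The Wnt inhibitor DKK1 had 2.11 ± 1.03 and did not pass.

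NUMBL also belongs to 6 tested genes of the RNA network that the study drew for this phase, of which 3 were higher (median 1.72). The study chose these genes on the same libraries, so their direction is not independent evidence. LRRTM1, a leucine-rich membrane protein of synapses that overlaps CTNNA2, had 17.24, 64.2, 57.3 and 37.8 FPKM across LH1 to LH4 and 7.60, 18.6, 24.02 and 8.08 across LL1 to LL4 (1.53 ± 0.59, adjusted p = 0.491). CAMKV, a kinase-like protein, had 23.9, 24.5, 22.3 and 44.9 FPKM across LH1 to LH4 and 8.89, 1.73, 1.86 and 22.4 across LL1 to LL4 (2.14 ± 0.76, adjusted p = 0.435), and only LL4 reached the LH range. LRRTM1 lost its call without LH2, LH3, LL1 or LL4 (1.298 to 1.36), while CAMKV kept it and was 2.75 without LL4.

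Markers of the other ovarian cell types gave few calls. Of 11 tested endothelial markers 1 was higher, NRP1, the co-receptor of vascular endothelial growth factor, at 25.1, 33.6, 43.8 and 7.71 FPKM across LH1 to LH4 and 8.5, 5.56, 3.92 and 13.8 across LL1 to LL4 (1.57 ± 0.68, adjusted p = 0.576). The lowest of its LH libraries was LH4, below LL1 and LL4, and the call was kept only without LH4 or LL4, with 1.28 to 1.64 in the other fits. EGFL7, the endothelial marker with the most fragments, had 892, 47.6, 626 and 404 FPKM across LH1 to LH4 and 945, 1213, 648 and 429 across LL1 to LL4 (-1.22 ± 0.74, adjusted p = 0.64), STAB1 had 0.99 ± 0.51 and CD300LG 0.60 ± 0.44, and these did not pass. Without LH2 the value of EGFL7 was -0.30. The summed level of the 11 markers was 618 to 1237 FPKM in LH and 728 to 1570 in LL, so the groups overlapped.

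CSPG4, a proteoglycan of pericytes, was the 1 call among 7 smooth muscle and pericyte markers, at 2.21, 1.31, 1.1 and 2.39 FPKM across LH1 to LH4 and listed at 0 in every LL library (adjusted p = 0.262), on 12 fragments. Their median was 0.08 and the summed levels 26.1 to 42.2 FPKM in LH and 19.8 to 36.0 in LL, with 2 higher calls without LH2, CSPG4 and DES. None of 6 macrophage markers passed (median 0.20), and CD68 had 1.25 ± 0.997. Nor did any of 4 lymphocyte markers (median 0.48), among which ITGAL had -2.18 ± 1.0, FOXP3 1.87 ± 1.14 and IL7R 0.84 ± 0.69. Without LH2, ITGAL passed on the lower side at -2.94. None of 4 surface epithelium markers passed (median 0.58). Among them GRHL2 had -1.34 ± 0.95, EZR 0.91 ± 0.69 and PPL 1.39 ± 0.77. Only 1 red cell gene, SPTB, was tested, and it did not pass.

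WEE2 was the 1 higher call among 3 tested germ cell markers, and the other 2 did not pass (median -0.14). The germ cell genes SOHLH1, STAG3 and TLE6 were listed at 0 in all 8 libraries, and GDF9 and PADI6 were not. Summed germ cell marker levels were 6.24 to 26.15 FPKM in LH and 0 to 7.62 in LL. Summed macrophage levels were 63.9 to 173 in LH and 56.2 to 152 in LL, and summed lymphocyte levels 32.8 to 145 and 16.7 to 97.3. The part of these cell types in the calls of other lists was not tested.

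Cell cycle genes had a median of 0.74, or 0.66 with the gene listed at 0 in one group set to 3 fragments over that group, and 2 of 14 tested genes were higher and none lower. MKI67, the proliferation marker Ki-67, was 0.63, 2.25, 0.94 and 5.12 FPKM across LH1 to LH4 and listed at 0 in every LL library (adjusted p = 0.375) on 19 fragments. CKS2, a subunit bound to cyclin-dependent kinases, had 18.7, 15.6, 23.8 and 85.8 FPKM across LH1 to LH4 and 2.38, 6.95, 7.48 and 25.02 across LL1 to LL4 (1.72 ± 0.75, adjusted p = 0.586), and LL4 lay within the LH range. The call of CKS2 was kept only without LH1, LH2 or LL4, with 1.19 to 1.80 in the other fits. CDC20, the member with the most fragments, had a log2 fold change of -0.36 on 866 and 833 fragments and did not pass, and neither did CENPF at -1.66 or TACC3 at -0.95 ± 0.44.

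Hypoxia and angiogenesis genes gave 3 higher and no lower calls among 7 tested (median 1.1), 2 of them linked only through the study's list, and 1 higher without LH2. BNIP3, a mitochondrial protein induced by low oxygen, had 15.5, 4.46, 25.8 and 15.5 FPKM across LH1 to LH4 and 6.86, 0, 0 and 0 across LL1 to LL4 (3.08 ± 0.98, adjusted p = 0.347), and LL1 lay above LH2. EGLN1, the oxygen sensor that marks HIF alpha for decay, had 0, 10.4, 13.2 and 8.17 FPKM across LH1 to LH4 and 0, 0, 2.37 and 0 across LL1 to LL4 (2.20 ± 0.97, adjusted p = 0.586), and LH1 was listed at 0. The EGLN1 call was kept only without LH1, where it was 3.07, or LL3, and was 1.80 to 2.05 in the other fits. BNIP3 kept its call throughout and was 3.82 without LL1. NRP1, described above, is the third, and ANGPTL1 had 91.8, 358, 209 and 96.0 FPKM across LH1 to LH4 and 53.1, 42.8, 131.5 and 103 across LL1 to LL4 (1.1 ± 0.52, adjusted p = 0.636) without passing.

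Among 9 tested nuclear genes of mitochondrial respiration 1 was higher (median 1.0). IDH3A, a subunit of the NAD-dependent isocitrate dehydrogenase of the citric acid cycle, had 129, 61.9, 91.3 and 57.6 FPKM across LH1 to LH4 and 10.6, 11.8, 28.7 and 60.5 across LL1 to LL4 (1.84 ± 0.57, adjusted p = 0.313) on 252 and 71 fragments. Only LH4, at 57.6, lay below LL4, at 60.5, and the call was kept in all 8 fits without 1 library. IDH3A overlaps ACSBG1. ATP5S, an assembly factor of ATP synthase, had 136.2, 165, 134 and 929.8 FPKM across LH1 to LH4 and 68.6, 85.7, 167.5 and 179.6 across LL1 to LL4 (0.99 ± 0.60, adjusted p = 0.64), with LH4 far above the rest, and did not pass. The 2 mitochondrially encoded transcripts lay on the other side, ND6 at -1.33 ± 0.74 without overlap and ND4 at -1.25 ± 0.58 with overlap, and neither passed.

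Lysosomal genes gave 5 higher and 1 lower calls of 14 tested (median 0.52), and 3 higher and 1 lower without LH2. The higher calls rested on at most 58 fragments in LH, and 5 of the 6 calls were linked only through the study's list. ATP6V1F, a subunit of the proton pump that acidifies the lysosome, had 60.5, 109, 70.7 and 61.0 FPKM across LH1 to LH4 and 51.5, 5.93, 27.5 and 7.89 across LL1 to LL4 (2.09 ± 0.63, adjusted p = 0.293), without overlap, and was called in all 8 fits without 1 library. ATP6V1D of the same pump had 3.72, 10.9, 8.31 and 0 FPKM across LH1 to LH4 and 1.66, 0, 0 and 0 across LL1 to LL4 (1.90 ± 0.86, adjusted p = 0.594), and LH4 was listed at 0. SUMF1, which activates sulfatases, had 11.9, 36.4, 22.2 and 11.97 FPKM across LH1 to LH4 and 2.65, 0, 2.79 and 11.2 across LL1 to LL4 (2.44 ± 0.86, adjusted p = 0.435), without overlap.

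LAMTOR3, which anchors signalling complexes to the lysosome, had 63.1, 5.97, 19.4 and 12.52 FPKM across LH1 to LH4 and 9.23, 0, 4.87 and 0 across LL1 to LL4 (2.75 ± 1.0, adjusted p = 0.474), and LH2 lay below LL1. HEXA, a subunit of beta-hexosaminidase, had 10.97, 0.92, 4.67 and 1.26 FPKM across LH1 to LH4 and 0, 0, 0 and 1.46 across LL1 to LL4 (1.73 ± 0.74, adjusted p = 0.576), and LL4 lay above LH2 and LH4. The lower call was CTSB, described above. The ATP6V1D call was kept only without LH4, where it was 2.66, or LL1, and was 1.47 to 1.91 in the other fits. HEXA failed without LH1, LH3, LL1, LL2 or LL3 (1.22 to 1.62), SUMF1 without LH2 (2.13) and LAMTOR3 without LH1 (2.16). Where their calls were kept, SUMF1 was 1.82 without LL2 and 3.02 without LL4, and LAMTOR3 3.38 without LL1.

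Of 14 tested translation genes 2 were higher and 1 lower (median 0.39), all 3 linked only through the study's list, and without LH2 only the lower count of 1 was left. GSPT1, the release factor eRF3a, had 18.3, 55.2, 25.9 and 44.4 FPKM across LH1 to LH4 and 5.18, 9.20, 9.94 and 23.4 across LL1 to LL4 (1.58 ± 0.60, adjusted p = 0.49), and LL4 lay above LH1. EIF3M, a subunit of initiation factor 3, had 17.11, 15.06, 2.55 and 8.27 FPKM across LH1 to LH4 and 0, 0, 0 and 6.40 across LL1 to LL4 (2.58 ± 0.99, adjusted p = 0.491), and LL4 lay above LH3. RPL6, a ribosomal protein with many processed copies in genomes, had 8.67, 4.78, 0 and 20.4 FPKM across LH1 to LH4 and 7.48, 59.9, 31.9 and 57.1 across LL1 to LL4 (-2.42 ± 0.95, adjusted p = 0.516), with overlap. GSPT1 failed without LH2, LH4 or LL1 (1.28 to 1.44), EIF3M without LH2, LL1, LL2 or LL3 (2.34 to 2.35) and RPL6 without LH3, LL2 or LL4 (-2.13 to -1.57). Where the calls were kept, EIF3M was 3.31 without LL4, and RPL6 was -3.04 without LH4 and -3.05 without LL1. RPL13 had 1.09 ± 1.0 and did not pass. None of 12 immediate early and stress genes passed (median 0.03), with FOSL1 at -0.09 on 1195 and 1013 fragments and HSP90AB1 at 0.14 on 1518 and 1191. In all, 18 list members among the most abundant of their lists had no call and values of -0.46 to 0.20.

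**Figure D5:**
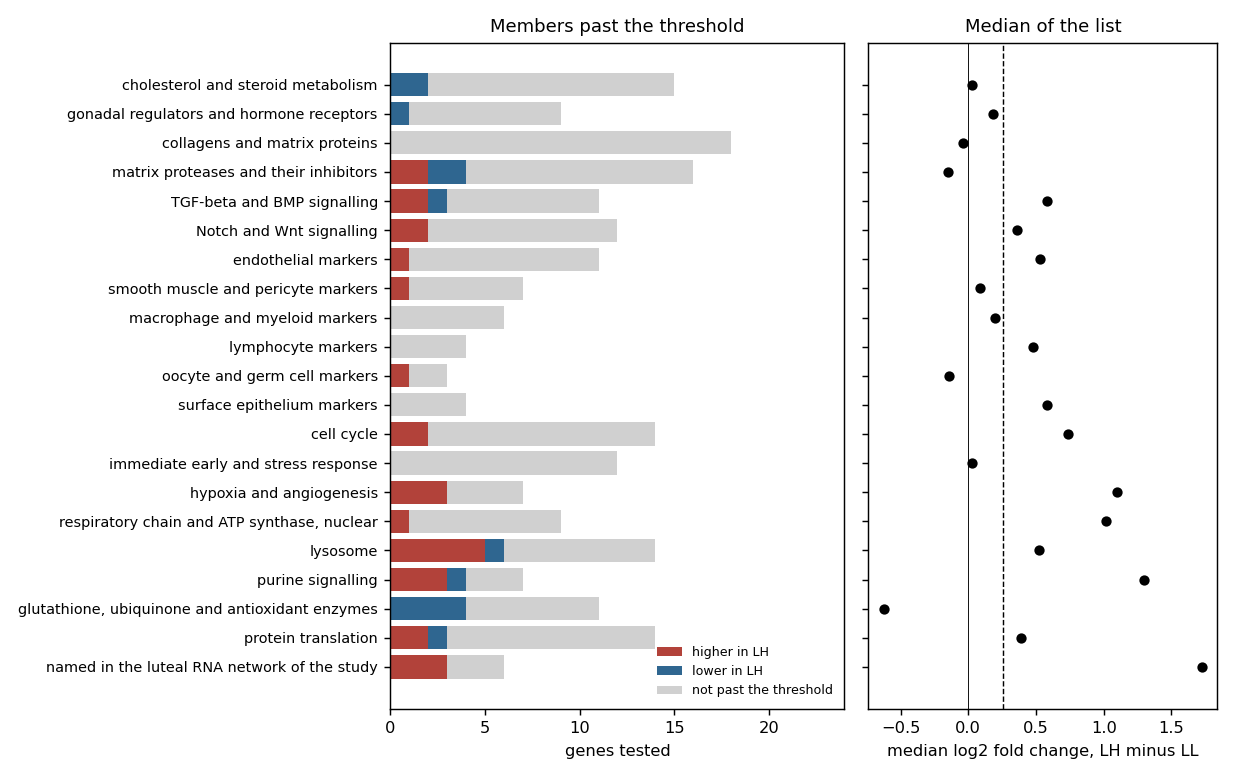
Left, for each list with 3 or more genes tested, the members higher, lower and not past the study's threshold (x axis, genes tested). Right, the median log2 fold change of each list, LH minus LL, with the median of 0.26 over all transcripts dashed. The purine list and the study's network lie to the right at 1.3 and 1.72. The list of glutathione, ubiquinone and oxidant handling, labelled as antioxidant enzymes, lies to the left at -0.62. Not all of its members are antioxidant enzymes.

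Because most calls were shallow, the named calls with 400 or more fragments over the 8 libraries were listed separately, a choice made after their values were seen. There were 16 among 127 named transcripts tested at that depth, 6 higher and 10 lower in LH. Over all 443 transcripts of that depth, named or not, 29 passed (6.55%), 10 higher (2.26%) and 19 lower (4.29%), and the split at the lower depth limit given above was 77 higher and 42 lower. Without LH2 the named count was 13, 7 higher and 6 lower, and 9 of the 16 calls were kept, 3 higher and 6 lower. Over all 443 it was then 21, 11 higher and 10 lower. Without LL2 the counts were 10 and 16, and without LH1 21 and 52. Of the 16, 8 had no overlap. ENTPD1, GSS, TMEM63A, DUOXA1 and INTS8 are described above. In 9 of the 10 lower ones LH2 was the lowest of the 8 libraries, and LH4 was in the other.

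PLPP5, a lipid phosphatase that overlaps DDHD2, had 2119.7, 697, 1396 and 844 FPKM across LH1 to LH4 and 3029.6, 3533, 2764 and 1758 across LL1 to LL4 (-1.22 ± 0.41, adjusted p = 0.398), on 4852 and 9573 fragments. LH1 lay above LL4, and without LH2 the value was -0.98, under the threshold. LSM1, a subunit of the complex that starts decay of mRNA, had 177, 67.0, 75.1 and 105 FPKM across LH1 to LH4 and 362, 514, 283 and 151 across LL1 to LL4 (-1.59 ± 0.45, adjusted p = 0.246), with LH1 above LL4, and the call was kept without each library. LSM1 overlaps BAG4. ACOT4, a peroxisomal thioesterase, had 260.0, 101, 165 and 152 FPKM across LH1 to LH4 and 377, 309.6, 396 and 380.4 across LL1 to LL4 (-1.18 ± 0.35, adjusted p = 0.27), without overlap, and was -0.96 without LH2. TCTN1, a protein of the ciliary transition zone that overlaps HVCN1, had 117, 13.9, 100.1 and 38.4 FPKM across LH1 to LH4 and 157, 188, 211 and 148 across LL1 to LL4 (-1.77 ± 0.58, adjusted p = 0.36), without overlap, and was -1.17 without LH2, still past the threshold. EMG1, a ribosome assembly methyltransferase that overlaps LPCAT3, had 176, 25.9, 204 and 146 FPKM across LH1 to LH4 and 319.9, 277, 324 and 188 across LL1 to LL4 (-1.32 ± 0.57, adjusted p = 0.576). The EMG1 call was lost without LH2, LL1, LL2 or LL3 (-1.31 to -0.64). FEM1B, a ubiquitin ligase subunit, had 34.6, 18.9, 37.8 and 20.8 FPKM across LH1 to LH4 and 73.2, 33.9, 75.7 and 51.4 across LL1 to LL4 (-1.03 ± 0.45, adjusted p = 0.586), with overlap, and was lost without LH2, LH4, LL1, LL3 or LL4 (-1.07 to -0.87).

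The deep higher calls beside INTS8 were of smaller size. USP1, a deubiquitinase of DNA repair that overlaps another annotated gene, had 102, 109, 120.97 and 176 FPKM across LH1 to LH4 and 46.0, 49.2, 54.3 and 62.8 across LL1 to LL4 (1.22 ± 0.35, adjusted p = 0.262). The groups did not overlap, the LL values were close together, and the call was kept without each library. RRP7A, a ribosome assembly factor that overlaps SERHL2, had 160.0, 166, 112 and 117 FPKM across LH1 to LH4 and 60.7, 32.6, 74.7 and 101 across LL1 to LL4 (1.12 ± 0.41, adjusted p = 0.454), without overlap, and 0.82 without LL2. GFM1, a mitochondrial elongation factor, had 53.9, 161.8, 168 and 123 FPKM across LH1 to LH4 and 25.3, 30.7, 83.6 and 99.3 across LL1 to LL4 (1.18 ± 0.54, adjusted p = 0.607), with overlap through LH1. KLHDC10, a kelch-domain protein, had 34.5, 127, 36.0 and 29.4 FPKM across LH1 to LH4 and 15.0, 5.13, 19.4 and 30.4 across LL1 to LL4 (1.59 ± 0.64, adjusted p = 0.524), with LH2 above the others. ARFGEF1, an exchange factor of the Golgi, had 43.1, 84.7, 46.5 and 115 FPKM across LH1 to LH4 and 21.0, 28.4, 35.5 and 51.3 across LL1 to LL4 (1.0 ± 0.47, adjusted p = 0.62), with LL4 above LH1 and LH3. The calls of GFM1 (0.86 to 1.15 without LH2, LH3, LH4, LL1 or LL2), KLHDC10 (1.11 without LH2, 1.13 without LL2) and ARFGEF1 (0.76 to 1.06 without LH2, LH4, LL1, LL2 or LL3) were lost in those fits. GFM1 overlaps LXN.

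The 10 named transcripts with the most fragments held 1 call, PLPP5. GYS1, glycogen synthase of muscle, took the most, with 10600.2, 3429, 7418 and 8764 FPKM across LH1 to LH4 and 9991, 13817, 12605 and 11069 across LL1 to LL4 (-0.76 ± 0.44, adjusted p = 0.64), and overlapped between the groups. ITPKC, a kinase of inositol trisphosphate, had 7673, 14356, 8525 and 7775 FPKM across LH1 to LH4 and 6619, 7253, 6828 and 4194 across LL1 to LL4 (0.60 ± 0.40, adjusted p = 0.668), and like KL it was higher in every LH library without passing. CAND2 had 0.52 ± 0.35, FEZ2 0.45 ± 0.33 and POLR2B 0.36 ± 0.32, all with overlap.

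Among calls without a symbol, the 2 per direction with the smallest p were ENSSSCT00000013093 and ENSSSCT00000014054, lower in LH, and ENSSSCT00000031805 and ENSSSCT00000024588, higher. ENSSSCT00000013093 had 0, 0, 9.66 and 10.3 FPKM across LH1 to LH4 and 45.3, 46.2, 36.6 and 88.97 across LL1 to LL4 (-3.98 ± 0.89, adjusted p = 0.192). ENSSSCT00000014054 had 0, 0, 6.21 and 6.67 FPKM across LH1 to LH4 and 36.8, 58.8, 31.3 and 24.1 across LL1 to LL4 (-3.75 ± 0.85, adjusted p = 0.192). The higher pair was listed at 0 in every LL library and ranged from 12.3 to 26.1 and from 3.98 to 62.1 FPKM in LH, on 6 and 3 fragments. ENSSSCT00000024588 had the same value as another transcript in every library, so its fragments may be shared between copies. None of the 4 showed overlap, which the filter fixed in advance for the higher pair.

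The follicular phase offered a separate set of sows for the same contrast. FH against FL had 366 calls among 8296 tested transcripts (4.41%). Of the 387 luteal calls 348 were tested there and 21 passed, 10 in the same direction and 11 in the opposite one. The 21 are 6.03% of the 348 tested, 5.43% of all luteal calls and 5.74% of the follicular calls. ENTPD1 is not among the 21, since FH against FL gave a log2 fold change of 1.25 with an unadjusted p of 0.0523 by limma. It had 50.7, 31.2, 62.6 and 19.6 FPKM in FL1 to FL4 and 242, 42.4, 138 and 46.3 in FH1 to FH4, all below its luteal LL values. The test of the difference between phases, the interaction of fecundity and phase in all 16 libraries, gave 784 of 11027 transcripts with an unadjusted p under 0.05 (7.11%) and 1 with an adjusted p under 0.05 (0.00907%), an interferon transcript that had too few values to enter the luteal test. The smallest adjusted interaction p among the named transcripts was 0.076, for FTL. Lower in LH, FTL passed in the opposite direction in the follicular phase (3.95, FH against FL). It was listed at 0 throughout FL and had 4.93 to 32.2 FPKM in FH.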

How the data were processed

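Ovarian RNA of 16 sows was sequenced, and the 8 luteal libraries (LH1 to LH4, LL1 to LL4) were compared. According to the methods of the study, ribosomal RNA was depleted, paired reads of a strand-keeping kit were mapped to the pig assembly Sscrofa10.2, and the authors computed expression per transcript with RSEM. The submitters' processing notes also name HISAT2 2.0.1, StringTie 1.0.4 and DESeq2 1.6.3. The strand setting of the counting step is not given in the sources used here. The deposited table holds FPKM per transcript, scaled within each library by its own fragments, so that abundant transcripts lower all other values. Neither the small RNA libraries nor the long non-coding RNA were analysed here.

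Differences were fitted with limma 3.58.1 (R 4.3.3) on log2(FPKM + 1) with a mean-variance trend, two-sided, for transcripts with 0.5 FPKM or more in at least 4 of the 8 libraries, without covariates. This scale understates changes of low transcripts. The threshold followed the study, with p under 0.05 before adjustment and a log2 fold change of at least 1 in size. The interaction used all 16 libraries. Library measures were compared by exact permutation tests (scipy 1.17.1). Tables and plots were made with matplotlib 3.10.9, pandas 2.3.3 and numpy 2.4.6 in Python 3.11.15. Simulated data with known changes served to test the fit. Fragments were recovered from the steps between low FPKM values, with an error of at most 0.721% on 3 simulated libraries, and cover counting error only. The samples are separate sows.

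Symbols came from transcript and gene identifiers paired in the study's differential lists and miRNA target tables, with the gene name table, 83 of them through the gene identifier alone. Neighbouring and overlapping genes came from the RefSeq order of protein-coding genes of Sscrofa11.1, and non-coding genes were not looked at. Named transcripts were the 12 per direction with the smallest p past the threshold, without overlap and with a group mean of at least 1 FPKM, list members past the threshold, the 3 most abundant members of each list, any with an adjusted p under 0.05, the 10 with the most fragments, and up to 2 unnamed identifiers per direction. Calls with 400 or more fragments were added after their values were seen, and list leaders under 0.5 without a call are given as a range. Where a gene had several transcripts, the most abundant stood for it in list counts. Lists have no test. A few genes that met these rules are counted but not reported by name here. The transcripts and lists were chosen with earlier results of these data known. Alternatives were another pseudocount (0.1), filter, scaling, variance trend, library weights, a replicate block, all 4 groups in the fit, voom on recovered fragments and leaving out each library.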

Additional observations from a re-analysis of the deposited data

Results flagged for a closer look

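Values were looked at again where the highest or lowest of the 4 libraries of a group lay far from its other 3. This was checked in 169 groups, of which chance marks about 1 in 20, and 15 were marked. LH2 was the library in 6 of the 8 marked LH groups. It was the lowest for TMEM63A (55.8 FPKM), ND6 (32444 FPKM) and EMG1 (25.9 FPKM) and the highest for ITPKC (14356 FPKM), IL7R (93.5 FPKM) and KLHDC10 (127 FPKM). LH4 was the highest for ATP5S (929.8 FPKM) and CAMKV (44.9 FPKM).

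In LL, 7 groups were marked. LL2 was the lowest for COQ10A (20.0 FPKM), LL3 for ADAMTS2 (0.79 FPKM) and YPEL4 (3.08 FPKM), and LL4 for ITPKC (4194 FPKM) and for the share of fragments taken by the 10 most abundant transcripts (27.5%). LL1 was the highest for CTSB (67.9 FPKM) and LL4 for SLC35F5 (11.9 FPKM).

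The effect of fecundity differed between the phases for IFN-ALPHA-8, a type I interferon (ENSSSCT00000036437), with an adjusted p of 0.0175 by limma for the interaction. It had 37.5, 61.8, 0 and 112 FPKM in LH1 to LH4 and was listed at 0 in all LL and FH libraries, while FL1 to FL4 had 46.5, 26.4, 21.4 and 102 FPKM. Its luteal part rested on 18 fragments.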

How the results depend on the processing

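The count past the study's threshold stayed within 1.5 times of 387 in 17 of 18 alternatives, and leaving out 1 library gave 361 to 605, the highest without LH1. Calls were also 359 with a pseudocount of 0.1, 529 without a filter, 375 with a filter of 1 FPKM, 425 without a variance trend, 455 with library weights, 470 with all 4 groups in the fit and 491 with voom on recovered fragments. The count of adjusted calls, 1 in the reported fit, became 0 with a pseudocount of 0.1, 18 without a variance trend, 5 with all 4 groups, 28 with voom and 0 to 3 without 1 library. These were not always the same transcripts. TMSB4X had an adjusted p under 0.05 in 12 of the 18 alternatives. It did not with a pseudocount of 0.1, the replicate block, all 4 groups, or without LL1, LL2 or LL4, where its adjusted p reached up to 0.354 by limma. The interaction's 1 adjusted call became 3 with a pseudocount of 0.1, 0 without a filter and 2 without a variance trend. The causes of these moves were not tested. With the replicate block 362 calls were made, 320 of them shared, and 0 adjusted. Libraries of the same number did not deviate together (r of -0.09 to 0.01), and those of unlike number had -0.06 to 0.09. With so few fragments behind most values, this check cannot exclude that the numbers pair the sows. The difference in detected transcripts was 1606 at 0.5 FPKM and 1532 at 1 FPKM. Of 74 calls chosen for naming 38 passed in all 18 alternatives and none changed sign. RPL13, not called, ran from -0.081 without LL3 to 1.62 without LL2. List counts without LH2 and counts of calls with 400 or more fragments were added after the data were seen. The number of recovered fragments limits most values, since the median tested transcript had 22 fragments.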

Other observations

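The type I interferons of the pig, small secreted proteins of antiviral defence encoded by a cluster of close gene copies, were examined together after IFN-DELTA-7 and IFN-ALPHA-8 had been seen. Of 10 named transcripts with values in these libraries 6 were tested and 3 passed the study's threshold, all higher in LH. The share passing was 7.72% over all tested transcripts and 16.5% over those with a symbol. IFN-OMEGA-3 had 162.4, 147, 249 and 265 FPKM in LH1 to LH4 and 128, 46.4, 18.6 and 155 in LL1 to LL4 (log2 fold change 1.61), on 64 and 22 fragments in LH and LL. IFN-OMEGA-7 had 99.4, 100.2, 289 and 171 FPKM in LH1 to LH4 and 44.7, 15.5, 55.6 and 103 in LL1 to LL4 (1.71), on 53 and 13 fragments. Both overlapped between the groups. IFN-OMEGA-6, the most abundant, had a log2 fold change of 1.21 and IFN-ALPHA-17 (ENSSSCT00000035220) -1.74, and neither passed.

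The counting did not keep these copies apart. IFN-OMEGA-2 and IFN-OMEGA-7 were listed with identical values in 14 of 16 libraries and in 7 of the 8 luteal ones, and in LH3 they had 0 and 289 FPKM. The sum over the 10 transcripts was 916, 1455, 1139 and 1950 FPKM in LH1 to LH4 and 794, 264, 867 and 838 in LL1 to LL4, which is 1365 ± 448 (SD, n = 4) and 691 ± 286 (SD, n = 4). All LH sums lay above all LL sums. The family was chosen for its values, so this difference was not tested.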
